A study of Homo sapiens with 6 samples.

Results

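Imprinted genes are transcribed from 1 parental copy only, and the set described here holds 10 of them, H19, IGF2, CDKN1C, DLK1, MEG3, PEG3, PEG10, MEST, SNRPN and NNAT. They were chosen by symbol, and all 10 were found once in both expression tables, among 37803 symbols found once in both. The rule used no measured value, but the members were chosen with earlier results of these data known. RNA-seq had been performed on the human embryonic stem cell line H1 at day 2 of differentiation towards blood, when the cells form mesoderm, in medium with 40 ng/ml activin A and 50 ng/ml BMP4 per the labels (the study's methods give the doses the other way round). WT libraries (n = 2) were compared with libraries of H1 after SNAI1 deletion, titled SNAI1_1 (n = 2) and SNAI1_2 (n = 2) and called SNAI1_KO_1 and SNAI1_KO_2 here. All 3 groups share the parent line, the medium and the day.

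The study describes a pair of frameshift knockout lines, and the labels do not say whether the number in a title stands for a line, so each group may be 1 clone. Nothing in the labels says that the libraries of a group came from separate cultures, and p-values measure only the spread between these libraries. Each table holds 1 library of every group, and values are FPKM, fragments scaled by transcript length and by library size. Summed FPKM lay between 600887 and 632318 per library. Absolute depth is unknown, and the estimated depth of the knockout libraries was between 0.876 and 1.11 times that of WT within a table. SNAI1 mRNA was 37.1 and 36.4 FPKM in WT and between 47.8 and 68.6 FPKM in the libraries labelled as knockouts, so it does not check the labels, and all directions are given for the libraries as they are labelled.

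An imprint is a mark, mostly DNA methylation, laid down on a control region in the egg or the sperm and kept through the divisions of the embryo. The mark lies on the copy from 1 parent, and which copy is silent differs between genes. A control region usually governs several neighbouring genes, of which some are expressed from the maternal and others from the paternal copy. Imprinted genes are known for roles in growth, in the placenta and in the brain, and pluripotent stem cell lines are known to gain or lose imprints in culture and can differ in them between clones, so SNAI1_KO_2 was also set against SNAI1_KO_1. RNA-seq of whole genes does not show which parental copy was read, so the values are total levels and imprinting itself was not measured. In bulk RNA, fewer cells of a type and less RNA per cell cannot be told apart.

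The levels of the 10 genes ran from listed at 0 in most libraries to among the highest of all symbols. SNRPN had the highest level in every library and a mean of 341.1 FPKM over the 6 libraries, above 99.4% of all symbols. PEG10 (151.6), MEST (78.6) and NNAT (29.1 FPKM) followed, and CDKN1C (3.28) and IGF2 (1.24 FPKM) were low. DLK1, PEG3, MEG3 and H19 had means of 0.628, 0.255, 0.245 and 0.0207 FPKM. Genes with a mean of at least 1 FPKM were tested, so 6 of the 10 were, with IGF2 the member just above the limit and DLK1 the one just below it. IGF2 reached that mean through its WT libraries, since all 4 of its knockout values lay under 1 FPKM. In 5 of the 6 libraries PEG10 ranked above MEST, and in the second-table SNAI1_KO_2 library MEST ranked above PEG10.

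**Figure D1:**
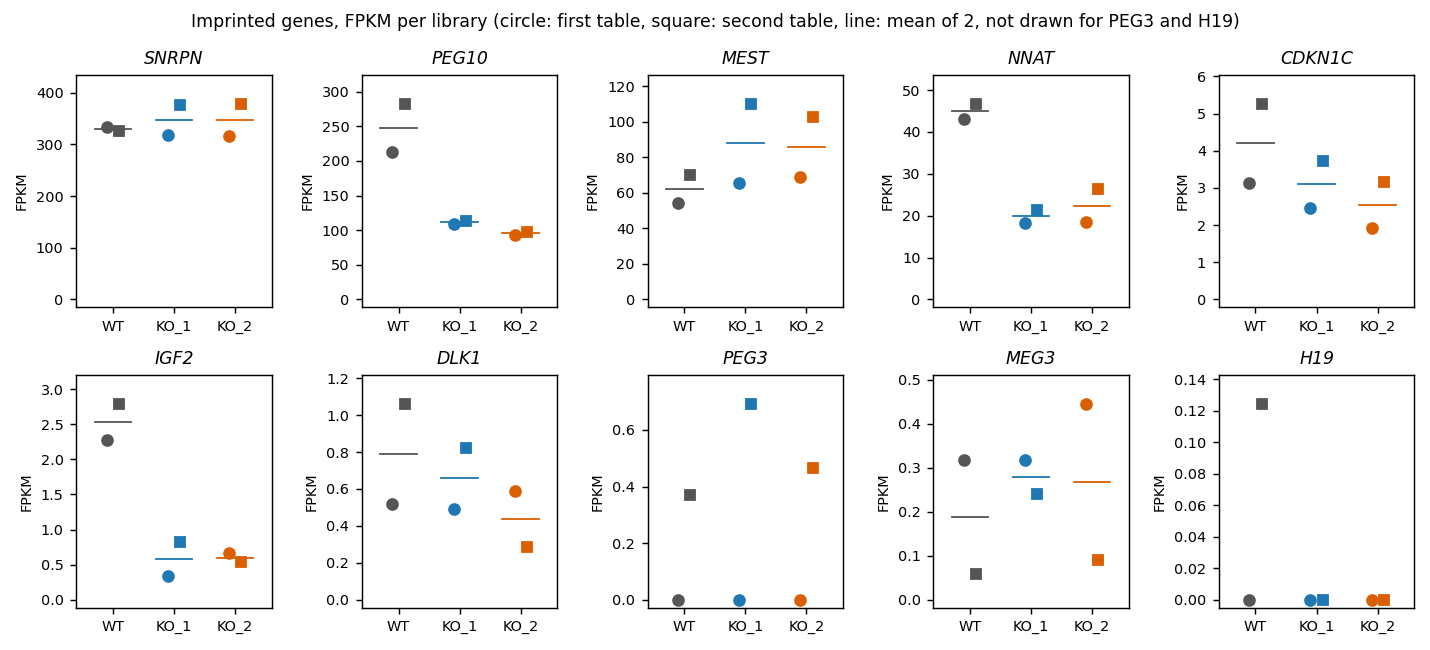
FPKM of the 10 imprinted genes in each of the 6 libraries, 1 panel per gene with its own linear axis from 0. Circles are the first table, squares the second, and lines the mean of both (not drawn for PEG3 and H19, which are listed at 0 in several libraries). PEG10, NNAT, IGF2 and CDKN1C are lower in all 4 knockout libraries than in the WT library of the same table, as are 35.1% of all genes tested. IGF2 passed the filter through its WT libraries alone. SNRPN lies between 315.4 and 378.1 throughout, and the 4 genes at the lower right stay near or under 1 FPKM.

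The test was limma on log2(FPKM + 1), with a mean for each group and a term for the table, adjusted by the Benjamini-Hochberg method over the 13909 genes tested, and a gene was called when its adjusted p was under 0.05. With both knockout groups set against WT, PEG10, NNAT, IGF2 and CDKN1C fell, MEST rose and SNRPN did not pass. That is 5 of the 6 members tested, 4 lower and 1 higher, where 31.3% of all genes tested were called, 15.4% lower and 15.8% higher. SNAI1_KO_1 alone gave 4 called members, 3 lower and 1 higher, with 23.9% of all genes called. SNAI1_KO_2 alone gave 5, 4 lower and 1 higher, with 25.5% of all genes called. Of all genes, 10.9% were lower and 13.0% higher in the first of these contrasts, and 12.0% lower and 13.5% higher in the second. Within the tables, 4 of the 6 members lay below WT in all 4 differences and 1 lay above it in all 4, where 35.1% of all genes tested lay below, 26.2% above and 61.3% on either side in all 4. Both contrasts share the WT libraries and are not independent. These counts describe the members and support nothing about them as a set, since IGF2 entered the test, and so the lower calls, through its WT level alone. The median log2 difference of all genes, both knockout groups against WT, was -0.05.

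PEG10, paternally expressed and derived from a retrotransposon, is needed for the placenta. In the first table WT had 213.3 FPKM, the library labelled SNAI1_KO_1 109.1 and that labelled SNAI1_KO_2 93.3. In the second table WT had 282.5 FPKM, SNAI1_KO_1 113.9 and SNAI1_KO_2 97.5. The WT libraries were both high and the knockout libraries did not overlap with them. Within a table, WT was between 1.96 and 2.90 times as high as a knockout library. Over both groups the log2 difference was -1.24 ± 0.084 (SE, adjusted p = 0.000688, limma), and 4.87% of the genes tested differed by more. SNAI1_KO_1 alone had -1.13 and SNAI1_KO_2 alone -1.35 (limma, adjusted p = 0.00195 and 0.00106). PEG10 passed in each contrast with WT under all 15 alternatives, among them no block (adjusted p 0.0247 over both groups) and leaving out any 1 library.

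PEG10 shares its control region on chromosome 7 with SGCE, a paternally expressed gene of the sarcoglycan family that starts 247 bases away on the other strand (GENCODE release 29, GRCh38). In the first and second table, SGCE was at 12.5 and 10.9 FPKM (WT), 11.1 and 9.66 FPKM (SNAI1_KO_1) and 10.9 and 10.3 FPKM (SNAI1_KO_2). Its log2 difference of -0.14 did not pass (limma, adjusted p 0.232). PEG10 was thus 17.1 and 25.9 times as high as SGCE in the WT libraries and between 8.55 and 11.8 times in the knockout libraries, a difference in response between neighbours that was not tested. The same imprinted domain holds TFPI2, an inhibitor of serine proteases, and PPP1R9A, an actin-binding protein of synapses, both known for maternal expression in the placenta. TFPI2 rose from 7.36 and 10.6 FPKM in WT to between 22.4 and 36.7 FPKM (log2 difference 1.59 ± 0.091, adjusted p = 0.000411, limma). PPP1R9A was 1.61 and 1.44 FPKM in WT and between 2.92 and 6.40 FPKM in the knockout libraries (limma, log2 difference 1.16, adjusted p 0.00984). Its call was lost without the first-table WT library (adjusted p 0.0926), without the block (0.0761) and without the filter (0.0796). Of the 4 genes of this domain, all tested, 1 fell, 2 rose and 1 did not pass. Beside these, 31.3% of all genes tested were called over both groups, 15.8% higher and 15.4% lower.

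NNAT encodes neuronatin, a small membrane protein of the endoplasmic reticulum, and is paternally expressed. The WT libraries had 43.2 and 46.7 FPKM, those of SNAI1_KO_1 18.3 and 21.3 FPKM, and those of SNAI1_KO_2 18.5 and 26.3 FPKM. Both WT libraries lay above every knockout library, while the knockout groups overlapped with each other. The limma estimate on the log2 scale was -1.07 ± 0.094 over both groups (adjusted p = 0.00136), -1.14 for SNAI1_KO_1 (0.00248) and -0.99 for SNAI1_KO_2 (0.00332). Over both groups it passed under all 15 alternatives, and without the block the call was lost in SNAI1_KO_2 alone (adjusted p 0.0600). NNAT lies within BLCAP, a gene on the opposite strand, on chromosome 20. BLCAP fell as well, from 31.4 and 27.7 FPKM in WT to between 19.01 and 21.7 FPKM (log2 difference -0.51, adjusted p = 0.00630, limma). Without the first-table WT library its adjusted p was 0.0632, and without the block 0.0774. It is not stated whether the authors' counting used strand, and without strand reads from NNAT and from BLCAP in the 2488 bases they share cannot be told apart.

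IGF2 and H19 are the classic reciprocal pair on chromosome 11. IGF2, the growth factor of the embryo and placenta, is read from the paternal copy and H19, a long non-coding RNA, from the maternal one. IGF2 was 2.28 and 2.79 FPKM in WT. It was 0.338 and 0.824 FPKM in SNAI1_KO_1 and 0.665 and 0.534 FPKM in SNAI1_KO_2, and no knockout library reached a WT library. Within a table, WT was between 3.38 and 6.74 times as high in FPKM as a knockout library. The log2 difference after adding 1 was -1.16 ± 0.18 (adjusted p = 0.00787, limma) and understates a change at this level. SNAI1_KO_1 alone had -1.17 and SNAI1_KO_2 alone -1.14 (limma, adjusted p = 0.0153 and 0.0152). In each group alone, IGF2 passed in 9 of 14 alternatives. Over both groups the call was lost without the first-table WT library, without the second-table one and without the filter (limma, adjusted p 0.0545). H19 was listed at 0 in 5 libraries and at 0.124 FPKM in the second-table WT library, so no H19 level was available to set against IGF2. IGF2 shares bases on its own strand with INS-IGF2, and these genes are uncertain for that reason.

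CDKN1C, a maternally expressed inhibitor of cyclin-dependent kinases that restrains growth, lies in the neighbouring domain on chromosome 11. In the first table WT had 3.13 FPKM, SNAI1_KO_1 2.47 and SNAI1_KO_2 1.91. In the second WT had 5.26 FPKM, SNAI1_KO_1 3.73 and SNAI1_KO_2 3.15. WT was highest within each table, while across the tables the WT and knockout values overlapped. The call rested on both groups together (log2 difference -0.44 ± 0.11, adjusted p 0.0358 by limma) and on SNAI1_KO_2 (-0.55, 0.0329), and SNAI1_KO_1 alone had -0.33 (0.127) and did not pass. In SNAI1_KO_2 alone the call held in 5 of 14 alternatives. Over both groups it was lost when any 1 of the 6 libraries was left out (adjusted p between 0.0860 and 0.202), without the block (0.468) and without the filter (0.104).

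PHLDA2, which lies 42499 bases from CDKN1C, is read from the maternal copy too, and limits placental growth. It was 0.487 and 0.645 FPKM in WT and between 2.10 and 3.16 FPKM in the knockout libraries. PHLDA2 rose by 1.23 ± 0.17 on the log2 scale (adjusted p = 0.00522, limma), and its call was lost without the filter (0.0522). With both WT values under 1 FPKM, it had entered the test through the knockout libraries alone. CDKN1C was 6.43 and 8.15 times as high as PHLDA2 in the WT libraries and between 0.606 and 1.502 times in the knockout libraries. The other tested genes of this domain, SLC22A18, OSBPL5 and NAP1L4, did not pass, with log2 differences of 0.05, -0.17 and -0.11. Of the 5 genes tested there, 1 rose and 1 fell, which is 40.0% called, beside 31.3% of all genes tested. Of all genes tested, 15.8% were called higher and 15.4% lower over both groups. Among 6 further inhibitors of cyclin-dependent kinases, none of them imprinted, 5 were tested, 3 rose and 0 fell by limma. The 3, named after their values were seen, were CDKN2B, CDKN2A and CDKN1A, with log2 differences of 1.42, 1.12 and 0.30 (adjusted p = 0.00146, 0.00581 and 0.0259). CDKN2B and CDKN2A were under 1 FPKM in both WT libraries and entered the test through the knockout libraries alone. A difference between these inhibitors and CDKN1C was not tested.

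**Figure D2:**
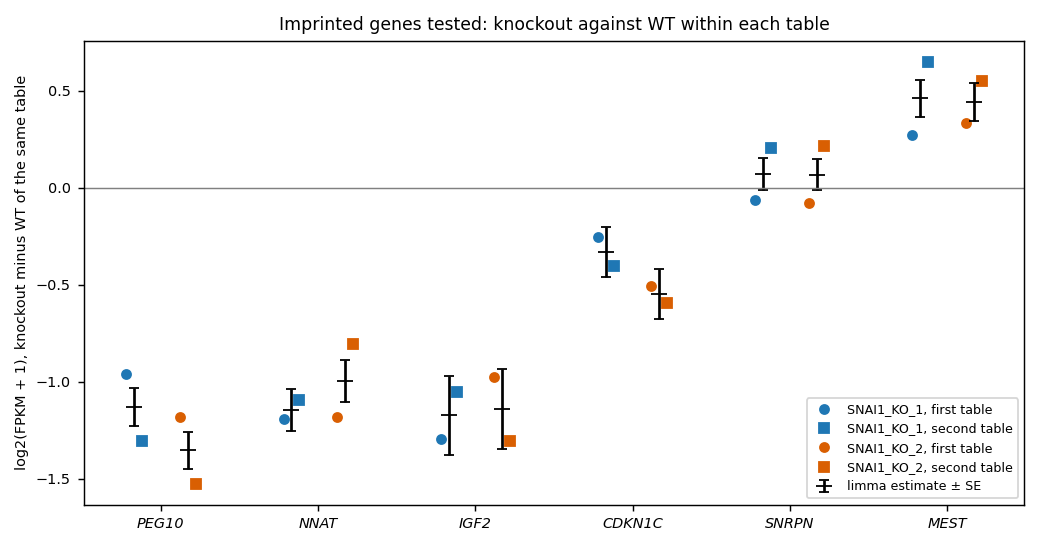
Difference on the log2(FPKM + 1) scale between each knockout library and the WT library of the same table for the 6 imprinted genes tested, with the limma estimate and its SE. PEG10, NNAT, IGF2 and CDKN1C lie below 0 in all 4 differences, MEST lies above 0 in all 4, and SNRPN lies below 0 in the first table and above 0 in the second.

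MEST encodes an enzyme of the hydrolase fold, is paternally expressed and was the member that rose. In the first table WT had 54.3 FPKM, SNAI1_KO_1 65.8 and SNAI1_KO_2 68.7. In the second the values in that order were 69.8, 110.1 and 102.8 FPKM. Each knockout library was above the WT library of its table, and the knockout libraries of the first table lay below the WT library of the second. Over both groups MEST rose by 0.45 ± 0.084 on the log2 scale (adjusted p = 0.0142, limma), with 0.46 for SNAI1_KO_1 and 0.44 for SNAI1_KO_2 (0.0261 and 0.0273). MEST passed in 6 of 15 alternatives for SNAI1_KO_1 alone and in 9 of 15 for SNAI1_KO_2 alone. The call over both groups was lost without the block (adjusted p 0.467), without the filter (0.0899), without the second-table WT library (0.0924) and without the SNAI1_KO_2 library of the first (0.0559) or second table (0.0608). COPG2, which overlaps the end of MEST on the opposite strand, did not pass (limma, -0.06, adjusted p 0.578).

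MEST has several promoters, and the best known of its imprinted ones is rich in CpG, the pair of bases that carries DNA methylation. A RefSeq window of MEST is shown with its CpG pairs in capitals, because it belongs to the member that rose. It holds the 250 bases before an annotated start, chr7:130491808-130492057 on the plus strand of GRCh38.p14, inside the MEST gene and over no exon annotated by GENCODE release 29.
MEST: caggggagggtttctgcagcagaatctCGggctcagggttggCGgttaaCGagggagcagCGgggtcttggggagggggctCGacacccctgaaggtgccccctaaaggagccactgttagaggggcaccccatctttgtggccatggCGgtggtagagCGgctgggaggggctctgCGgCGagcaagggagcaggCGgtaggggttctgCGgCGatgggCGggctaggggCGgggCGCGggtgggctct
It holds 16 CpG, where the median over 35116 such windows of all genes was 11 (quartiles 3 and 23). Methylation was not measured in these libraries.

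An intron of MEST carries a microRNA, and both of its mature forms in RefSeq are shown with the seed, bases 2 to 8, in capitals, since MEST is the host whose level rose. The libraries do not measure mature microRNAs, and nothing is drawn on them from the level of MEST.
hsa-miR-335-5p: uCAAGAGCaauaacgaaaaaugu
hsa-miR-335-3p: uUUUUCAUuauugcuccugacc

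SNRPN, paternally expressed and coding for a protein of the splicing machinery, marks the Prader-Willi domain on chromosome 15. In the first table WT had 332.7 FPKM, SNAI1_KO_1 318.5 and SNAI1_KO_2 315.4. In the second the values in that order were 326.1, 376.1 and 378.1 FPKM. The knockout libraries were thus a little below WT in one table and above it in the other. Over both groups the log2 difference was 0.07 ± 0.070 (adjusted p = 0.491, limma), and its sign turned without the second-table WT library (-0.07). SNURF, which shares 22865 bases with SNRPN on the same strand, had 6.55 and 10.5 FPKM in the WT libraries, 13.5 and 17.4 FPKM in those of SNAI1_KO_1, and 8.71 and 16.98 FPKM in those of SNAI1_KO_2. It was called over both groups (limma, 0.65, adjusted p 0.0153) and in SNAI1_KO_1, and not in SNAI1_KO_2 alone (0.0579). SNRPN and SNURF are known to share transcripts, so how the authors' program divided reads between them is uncertain, and the call was lost without either WT library (0.112 and 0.117), the block (0.334) or the filter (0.0910). SNHG14, NDN, NPAP1 and the maternally expressed UBE3A did not pass, with log2 differences between -0.21 and 0.06.

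SNAI1 protein binds E-boxes of the letters CAGGTG or, on the other strand, CACCTG. RefSeq windows of 250 bases before a start were at hand for 4 of the 10 members, H19, MEG3, MEST and SNRPN, 13 windows in all, and the motif on either strand was in 2 of them, 1 of H19 and 1 of SNRPN. Over all 35116 windows it was in 17.5%. The window of SNRPN is shown, with the motif in capitals, because SNRPN is the member with the highest level and it did not pass. It covers chr15:24956050-24956299 on the plus strand of GRCh38.p14.
SNRPN: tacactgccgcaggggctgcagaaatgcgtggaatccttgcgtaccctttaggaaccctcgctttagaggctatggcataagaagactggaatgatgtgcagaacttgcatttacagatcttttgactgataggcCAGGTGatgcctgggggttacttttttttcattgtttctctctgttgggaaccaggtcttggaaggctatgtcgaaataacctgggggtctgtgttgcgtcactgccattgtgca
The motif starts at position 136 of the window. A match of letters is a description and not a bound site.

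DLK1 and MEG3 share a control region on chromosome 14, and MEG3 is known to be lost in many pluripotent stem cell lines. DLK1, a paternally expressed membrane protein of the Notch family, was 0.518, 0.493 and 0.591 FPKM in WT, SNAI1_KO_1 and SNAI1_KO_2 of the first table and 1.06, 0.823 and 0.286 FPKM in the second. MEG3, a maternally expressed long non-coding RNA, was 0.318, 0.318 and 0.445 FPKM in the first table and 0.0582, 0.241 and 0.0899 FPKM in the second. One WT value of MEG3 lay below all 4 knockout values and the other within their range. Of DLK1, the second-table WT library was the highest and the second-table SNAI1_KO_2 library the lowest, and the other WT value lay within the range of the knockout values. Neither gene passed when the filter was dropped (limma, adjusted p of 0.631 for DLK1 and 0.571 for MEG3). DIO3, at the far end of the domain, encodes an enzyme that inactivates thyroid hormone and was the only gene of the 6 in this domain to pass the filter. It was 12.7 and 25.2 FPKM in WT and between 12.4 and 20.6 FPKM in the knockout libraries, and did not pass (limma, -0.15, adjusted p 0.544).

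PEG3, a paternally expressed zinc-finger protein, was listed at 0 in all 3 libraries of the first table. In the second WT had 0.369 FPKM, SNAI1_KO_1 0.691 and SNAI1_KO_2 0.467. The difference between tables was larger than any between the groups. Of 623 symbols between 0.3 and 0.75 FPKM in every library of the second table, 10 (1.61%) were at 0 throughout the first. PEG3 shares its bases with ZIM2, listed at 0 in 5 libraries and at a value of practically 0 in the second-table WT library, so the level of PEG3 is uncertain. Without the filter neither PEG3 nor H19 passed (limma, adjusted p of 0.547 and 0.410).

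The knockout groups were then compared with each other. None of the 6 tested members was called between SNAI1_KO_2 and SNAI1_KO_1 by limma, and none had an unadjusted p under 0.05. Among all genes 0 of 13909 were called (0.0%), with 521 at an unadjusted p under 0.05 and a smallest adjusted p of 0.324. PEG10 came nearest, and averaged 111.5 ± 3.36 FPKM for SNAI1_KO_1 against 95.4 ± 2.97 FPKM for SNAI1_KO_2 (SD, n = 2). Its log2 difference, SNAI1_KO_2 minus SNAI1_KO_1, was -0.22 in each table, with a 95% interval from -0.47 to 0.023. The intervals of the other members ran from -0.54 to 0.10 for CDKN1C, from -0.12 to 0.42 for NNAT, from -0.26 to 0.23 for MEST, from -0.21 to 0.20 for SNRPN and from -0.48 to 0.55 for IGF2. On the log2(FPKM + 1) scale, a difference of 1 between the knockout groups lay outside all of these intervals. IGF2 lay under 1 FPKM in every knockout library, where this scale understates changes, so its interval leaves room for larger differences in FPKM. Smaller differences inside them were not detectable, and the intervals are not adjusted for the number of genes.

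Of all 10 members, PEG10, CDKN1C and NNAT kept the sign of this difference in both tables, as did 48.9% of the genes tested. DLK1 was higher in SNAI1_KO_2 in the first table by 0.09 and lower in the second, with -0.50 on the log2 scale, the largest among the 10. IGF2 likewise had 0.31 in the first table and -0.25 in the second. For 6 of the 10 members, and for 71.3% of the genes tested, the knockout libraries differed more between tables than between groups. MEST was the widest of those tested, with a mean absolute log2 difference of 0.65 between tables and 0.080 between the knockout groups. No member lay above WT in one knockout group and below it in the other in both tables, as 264 of the 13909 genes tested (1.90%) did.

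**Figure D3:**
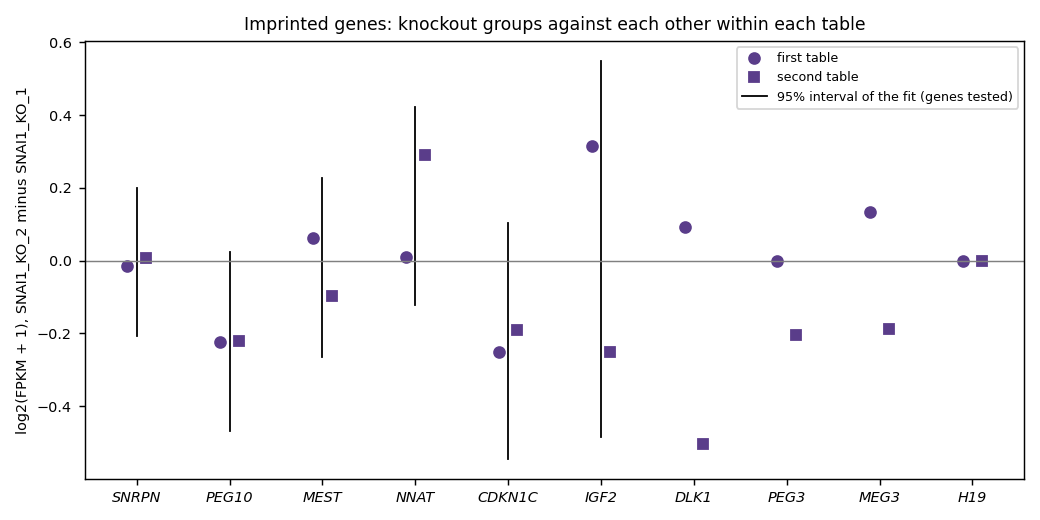
SNAI1_KO_2 minus SNAI1_KO_1 on the log2(FPKM + 1) scale for the 10 imprinted genes, in the first table (circles) and the second (squares), with the 95% interval of the limma fit for the 6 genes tested. Every interval includes 0, the PEG10 points lie together at -0.22, and the DLK1 points lie furthest apart.

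Beyond the 10 members, 52 imprinted genes were listed, of which 47 were in both tables and 29 were tested. Of these, 6 rose and 2 fell with both groups set against WT, 5 rose and 3 fell in SNAI1_KO_1, and 4 rose and 2 fell in SNAI1_KO_2. The share called over both groups was 27.6%, near the 31.3% of all genes, and the median log2 difference was -0.09 beside -0.05 for all genes. The 3 calls outside the members' domains were NAA60, INPP5F and RB1. NAA60, an acetyltransferase of the Golgi membrane, fell from 48.1 and 52.4 FPKM in WT to between 28.5 and 35.9 FPKM (limma, -0.65, adjusted p 0.00209), and its call was lost without the block (0.0676). INPP5F, an inositol phosphatase, rose by 0.32 (0.00715), and its call was lost without the block (0.474) and without the second-table WT library (0.0670). RB1, the retinoblastoma tumour suppressor, was called at 0.31 (adjusted p = 0.0498, limma) and passed in 4 of 15 alternatives, with an adjusted p between 0.0988 and 0.265 when any 1 library was left out.

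Calls of both directions were found among genes known to be read from either parental copy. With members and wider list together, 17 paternally expressed genes were tested, 2 rose and 3 fell, and their median log2 difference was -0.15. Of 7 maternally expressed genes 3 rose and 1 fell, with a median of 0.05. Of 11 genes whose imprinting depends on isoform or is unclear, 2 rose and 2 fell, with a median of -0.06. The shares called were 29.4%, 57.1% and 36.4% in that order, beside 31.3% of all genes tested. IGF2, among the paternally expressed genes that fell, entered the test through its WT libraries alone. PHLDA2, among the maternally expressed genes that rose, entered it through the knockout libraries alone. These shares were not compared by a test.

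**Figure D4:**
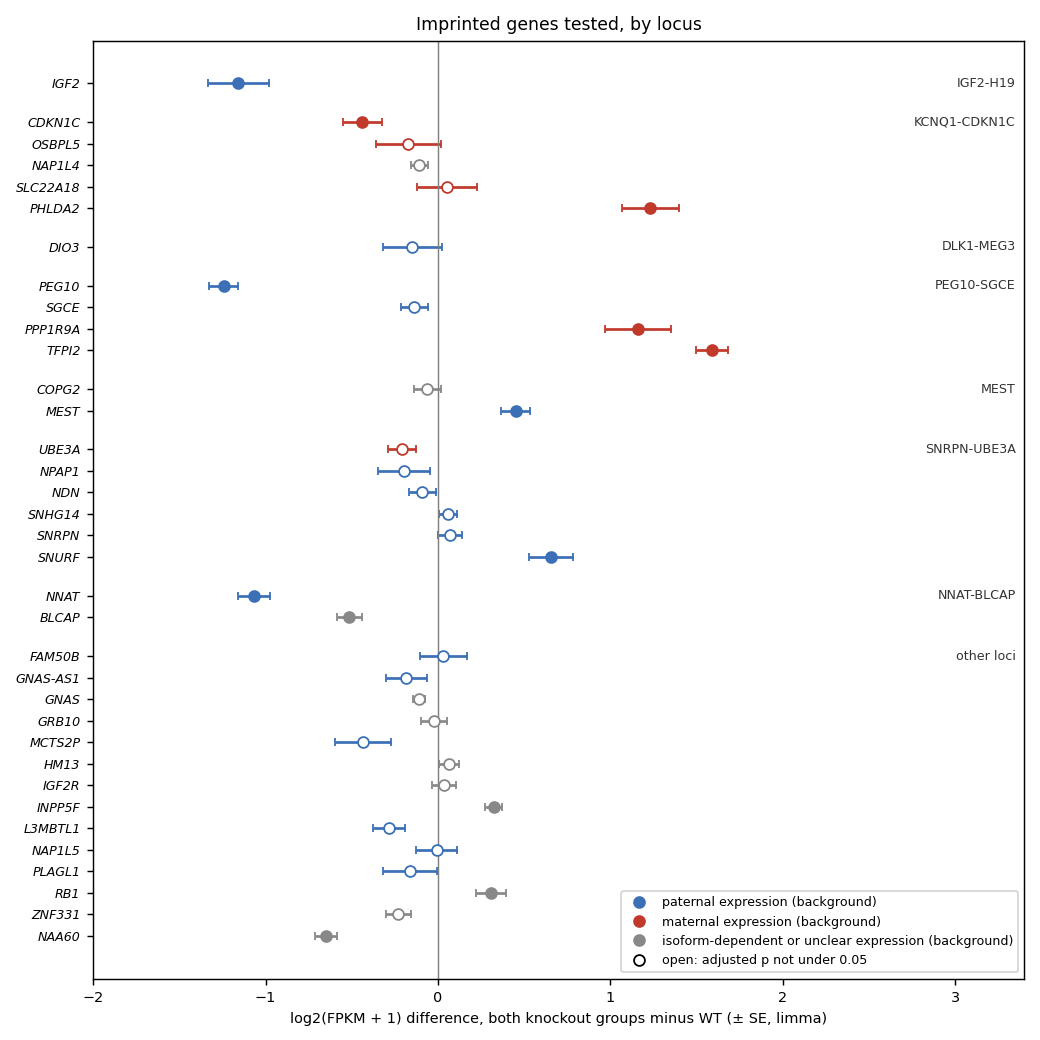
Difference on the log2(FPKM + 1) scale of both knockout groups against WT, with SE, for the 35 tested imprinted genes, grouped by domain and coloured by the parental copy they are known to be read from. Filled points passed the threshold. In the PEG10-SGCE domain PEG10 lies at -1.24 and TFPI2 at 1.59, and in the KCNQ1-CDKN1C domain CDKN1C lies at -0.44 and PHLDA2 at 1.23.

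One gene of the wider list, L3MBTL1, a paternally expressed Polycomb-related protein named here after its values were seen, was the only one of the 29 with an unadjusted p under 0.05 between the knockout groups. Its WT libraries had 6.89 and 8.84 FPKM, those of SNAI1_KO_1 4.05 and 5.98 FPKM, and those of SNAI1_KO_2 6.45 and 9.48 FPKM. SNAI1_KO_1 was the lowest in each table. It fell in SNAI1_KO_1 against WT (limma, -0.57, adjusted p 0.0187) and was at 0.00 on that scale in SNAI1_KO_2. SNAI1_KO_2 minus SNAI1_KO_1 was 0.57 ± 0.11, and did not pass (limma, unadjusted p = 0.00249, adjusted p = 0.9996).

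Genes linked to the upkeep of imprints were listed next, among them enzymes that add or remove DNA methylation. Of 18 listed, 14 were tested, 0 rose and 2 fell over both groups (limma, with 4 at an unadjusted p under 0.05). That is 14.3% called, beside 31.3% of all genes tested, of which 15.4% were lower. TRIM28, a corepressor that acts at methylated imprints, was 382.9 and 614.5 FPKM in WT and between 295.0 and 465.0 FPKM in the knockout libraries. It fell by 0.39 on the log2 scale (adjusted p = 0.00268, limma). TET1, an enzyme of DNA demethylation, was called at -0.41 (0.0300) and lost its call without any 1 library (adjusted p between 0.0672 and 0.194). Without the block both were lost, with adjusted p of 0.571 and 0.401, and TET1 was lost without the filter too (0.0851). The methyltransferases DNMT1, DNMT3A and DNMT3B did not pass, with log2 differences of -0.02, 0.01 and -0.06. The 4 genes below the filter were not tested. DPPA3, named after its values were seen, was 1.08 and 0.959 FPKM in WT. It was between 0.0414 and 0.107 FPKM in the knockout libraries. DNMT3L went the other way, from 0.0383 and 0.209 FPKM in WT to between 0.357 and 0.527 FPKM. ZFP57 and NLRP7 reached at most 0.0899 and 0.145 FPKM.

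The signalling axis of IGF2 was described from a list of 23 genes, of which 18 were tested, 4 rose and 3 fell. That is 38.9%, beside 31.3% of all genes tested. IGFBP3, which binds IGF ligands outside the cell, was 0.813 and 0.495 FPKM in WT and between 20.7 and 25.02 FPKM in the knockout libraries (log2 difference 3.85 ± 0.080, adjusted p = 0.000139, limma). IGFBP7 rose by 1.95 (0.000991), IRS4, an adaptor of the receptors, by 1.53 (0.00118), and IGFBP2 by 0.83 (0.000442), which was lost without the block (0.186). IGFBP3 and IRS4 were under 1 FPKM in both WT libraries and entered the test through the knockout libraries alone. IGFBP4, IGFBP6 and IGF2BP1, named after their values were seen, fell, with log2 differences of -0.76, -0.65 and -0.34. The receptors IGF1R, INSR and IGF2R did not pass, with log2 differences of -0.34, -0.30 and 0.04 (limma, adjusted p of 0.119, 0.340 and 0.721).

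**Figure D5:**
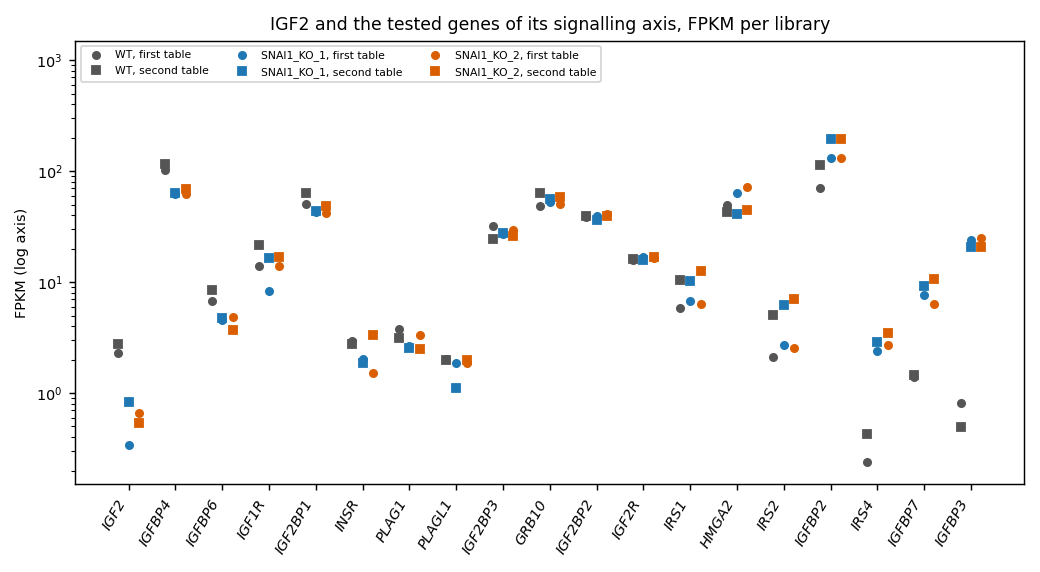
FPKM on a log axis of IGF2 and the 18 tested genes of its signalling axis in each of the 6 libraries, ordered after IGF2 by the log2 difference of both knockout groups against WT. IGF2 lies under 1 FPKM in all 4 knockout libraries, and IGFBP3 lies under 1 FPKM in both WT libraries and above 20 in the knockout libraries.

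Some markers of the cell types that the cultures could hold differed between WT and the knockout groups, and others did not. The part of these cell types in the values of the imprinted genes was not tested. As a background for the counts that follow, 31.3% of all genes tested were called over both groups, 15.8% higher and 15.4% lower. Markers of primitive streak and mesoderm were present in every library. Of 9 symbols listed 8 were found, since TBXT and T name the same gene and it is listed as T. The summed FPKM of the 8 was between 1599 and 1671 in WT, between 1091 and 1172 in SNAI1_KO_1 and between 1100 and 1154 in SNAI1_KO_2. Over both groups 6 were called lower and 1 (T) higher by limma. T rose from 17.8 and 38.7 FPKM in WT to between 129.6 and 251.3 FPKM (log2 difference 2.72). The 5 pluripotency markers summed to between 837.7 and 912.8 FPKM in WT and between 1055 and 1288 in the knockout libraries, with 3 called higher. The 5 endoderm markers summed to between 3136 and 3511 in WT and between 1428 and 2041 in the knockout libraries, with 4 lower and 1 higher. CER1 had the largest part of this sum, at 3262 and 2550 FPKM in WT and between 976.9 and 1797 FPKM in the knockout libraries. The marker called higher was SOX17 (log2 difference 0.63). For amnion and trophoblast, where several of these imprinted genes are known to be high, the 10 markers summed to between 34.4 and 56.7 FPKM in WT and between 37.3 and 65.1 in the knockout libraries, XAGE2 was at 0 in all 6 libraries, and 5 markers stayed under 1 FPKM throughout. Of its 4 markers tested, 3 were called over both groups by limma. TFAP2A rose from 3.22 and 5.36 FPKM in WT to between 14.3 and 24.1 FPKM (log2 difference 1.82), and GABRP, under 1 FPKM in both WT libraries, to between 1.03 and 2.34 FPKM (1.16). GATA3, which has the largest part of the summed level in WT, fell by 0.87 on the log2 scale. The 5 neuroectoderm markers summed to between 156.5 and 180.6 FPKM over all groups. Of the 2 tested, NES was called higher (0.42) and OTX2 was not called. PAX6 was below the filter, at 1.29 and 2.38 FPKM in WT and between 0.0242 and 0.184 FPKM in the knockout libraries. The 5 markers of blood and endothelium summed to between 3.68 and 6.88 FPKM, and RUNX1, the 1 tested, was not called.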

How the data were processed

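RNA-seq was performed by the authors on 6 libraries, from 2 ug of total RNA each per the labels. The deposited values are FPKM per gene symbol in 2 tables (38100 and 58324 rows), a unit named in the second table only. The submitters' processing notes name BWA, Bowtie, RSEM and hg19 without roles. Per-sample columns outside the 6 used numbered 0.

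Because each table was normalized on its own, the table entered the fit as a block and knockout libraries were set against WT within tables. Symbols listed more than once (94 and 340) were left out. The 13909 genes whose FPKM averaged 1 or more were tested on log2(FPKM + 1) in R 4.3.3 by limma 3.58.1, using a mean-variance trend, with 2 residual and 3.34 prior degrees of freedom and two-sided p-values. A difference on this scale understates changes of low genes. The models were tested on simulated data. FPKM carries no read totals, so no counting interval is given.

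The pairing comes from the shared tables. For the 3 pairs of groups, the differences between tables had Pearson correlations of 0.616, 0.666 and 0.676 over genes, and genes are not independent replicates.

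The members and gene lists were chosen with earlier results of these data known. All 10 members are named, then tested genes of the same domains, then up to 4 called genes of each other list with the largest differences, then SNAI1, in each case by absolute log2 difference over both knockout groups. Of the remaining imprinted genes 3 were called, and of those linked to the upkeep of imprints 2. Overlaps of genes come from GENCODE release 29 on GRCh38, and sequences from RefSeq (GRCh38.p14), not from the build of the files. Alternatives were no block, no filter, a filter at a mean of 5 FPKM, pseudocounts of 0.1 and 10, quantile normalization, median-ratio scaling, no trend, other groups in the fit, a log2 difference of at least 1, and leaving out each library.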

Additional observations from a re-analysis of the deposited data

How the results depend on the processing

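With 2 libraries a group, differences inside the printed intervals and levels near 0 FPKM limit these results. Of 721 alternative values for 49 single-gene results, 617 kept direction and stayed on the same side of the threshold, 87 kept the direction but lost the call, and 17 turned direction. The cause of these changes was not tested.

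Members called, in SNAI1_KO_1, SNAI1_KO_2 and both groups against WT, numbered 4, 5 and 5. They numbered 2, 2 and 2 without the filter and 2, 1 and 3 without the replicate block. A mean FPKM of at least 5, which leaves out CDKN1C and IGF2, gave 3 in SNAI1_KO_2 and 3 in both groups, and a log2 difference of at least 1 gave 2 and 3. Without 1 library they numbered 2 to 3, 2 to 4 and 2 to 4. The wider imprinted list had 8, 6 and 8 calls, against 2, 2 and 4 without the filter, 1, 2 and 2 without the block, 3, 3 and 3 at a log2 difference of at least 1, and 2 to 8, 2 to 5 and 4 to 7 without 1 library. Calls over all genes numbered 3327, 3549 and 4348, against 1008, 1216 and 2139 without the filter, 576, 698 and 1065 without the block, 950, 1054 and 998 at a log2 difference of at least 1, and 962 to 2379, 1135 to 2693 and 1728 to 2840 without 1 library. Between the knockout groups 0 genes were called under every alternative run.

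Directions turned only in results that had not passed. Under quantile normalization SNRPN between the knockout groups was 0.013 and SLC22A18 against WT -0.012. Without 1 library, SNAI1_KO_2 minus SNAI1_KO_1 ran from -0.19 to 0.26 for IGF2, -0.15 to 0.12 for MEST, -0.081 to 0.075 for SNRPN and -0.015 to 0.31 for NNAT. SNRPN against WT ran from -0.068 to 0.21 in SNAI1_KO_1, -0.071 to 0.21 in SNAI1_KO_2 and -0.070 to 0.21 in both groups. SLC22A18, OSBPL5 and DIO3 against WT ran from -0.20 to 0.31, -0.51 to 0.16 and -0.42 to 0.12.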
